A study of Mus musculus with 10 samples.

Results

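H3K27me3, the trimethylation of lysine 27 of histone H3, was compared between the mouse retina at postnatal day 7 (PN7) and at postnatal day 15 (PN15). The comparison used 2 of the 10 libraries of the series, 1 for each stage, and took in all 20045 gene symbols of the deposited table. Each symbol was represented by 1 of its table entries, the one with the largest sum over the 8 measured columns, and the change was the log2 of (PN15 value + 1) over (PN7 value + 1). The values were normalized ChIP-Seq occupancies within 2.5 kb either side of a gene's transcription start site, and the table does not give which start site stands for an entry. All the libraries came from whole retina, with at least 20 retinas pooled for a stage. The genotype is given in 2 ways. The sample labels name a Pde6b (rd1/rd1) mutant strain for every library. The study's methods list C57BL/6j mice, with rd1/rd1 mice as a control for the subtraction of rods, and assign no strain to a stage. Elsewhere the study calls the retina of its developmental course wild type. The labels also call the embryonic stage E17 and the protocol E17.5. The other 2 H3K27me3 libraries, from E17.5 and PN1, and the 4 H3K4me2 libraries of the same stages served as side comparisons. With 1 library a stage there was no replicate check, no test was made, and "fell" and "rose" below mean a change of at least 2-fold.

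H3K27me3 is written by Polycomb repressive complex 2 (PRC2) and is found over promoters of silent developmental genes, most of them rich in CpG dinucleotides. H3K4me2 marks promoters and enhancers that are active or poised. Between PN7 and PN15 in wild type mouse retina rod photoreceptors grow outer segments, synapses form and the eyes open. The study describes rd1/rd1 retinas as having lost their rods, so the open question of genotype bears on the cell type lists below. In whole retina, fewer cells that carry a mark cannot be told apart from less of the mark per cell.

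The upper end of the H3K27me3 range was lower at PN15 than at PN7, while the middle was alike. The median over all symbols was 9 at PN7 and 10 at PN15, and the 75th percentile was 22 at both. The 95th percentile, by contrast, was 160 at PN7 and 97 at PN15, and the 99th was 414 and 207. At E17.5 and PN1 the 99th percentile had been 464 and 575. Summed over all symbols, the PN15 occupancy was 0.738 of the PN7 occupancy, and the highest 5% of symbols held 33.2% of the sum at PN15 against 46.6% at PN7. With 1 library a stage, a general loss of the mark and a lower enrichment over background in the PN15 preparation cannot be told apart.

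The libraries also differed in depth and in their values over repeated sequence. A fit to the histogram of whole-number values gave 1 read as worth 0.3125 units at PN7 and 0.873 units at PN15. By that fit the PN7 library was about 2.79 times as deep as the PN15 library. At PN7, 481 symbols (2.4%) were listed at 0, against 14 at PN15, 28 at PN1 and 25 at E17.5. Of the 440 of them with a position in mm9, 398 (90.5%) lay in windows of which under 50% was sequence that occurs once in the genome, and 454 of the 481 were at 0 for H3K4me2 at PN7 as well. The 15 largest rises by the naming rule all lay in windows of which at most 25.5% was unique, among them the interferon gene Ifnz, Plac9, Dux and Nid1. Plac9 was at 128, 171, 0 and 66 over the 4 stages in order, and Nid1, which encodes a basement membrane protein, at 134, 166, 2 and 74. At both, the PN7 value stood alone in being near 0. The PN7 column is also the only H3K27me3 column whose name carries an added letter b, which no source used here explains, and its part in these zeros was not tested. Rises in repeated windows are therefore given here as counts, and genes were mainly described from the 17753 symbols whose window was at least 80% unique.

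Over all symbols, 1945 of 20045 fell (9.7%) and 3006 rose (15%). Among the 5392 symbols with a mean over both stages of at least 20 units, 1016 fell (18.8%) and 229 rose (4.25%), with a median change of -0.42. In unique windows at the same level, 992 of 5099 fell (19.5%) and 140 rose (2.75%). These splits hang on the scale. Dividing each library by its own median moved the median of all symbols by -0.12 and turned the split into 2455 that fell and 2318 that rose. Dividing by the median over olfactory and vomeronasal receptor symbols, 5 at PN7 and 10 at PN15, moved it by -0.86 and gave 8879 and 999. All values below are on the deposited scale, and a rise of less than about 2-fold becomes a fall on the last of these scales.

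The change followed the level of the mark. Among 716 symbols with a mean of 160 or more, occupancy had a median of 311 at PN7 and 159 at PN15. The median of the log2 changes was -1.01 (quartiles -1.16 and -0.84), 370 fell (51.7%) and 0 rose. At 80 to 160 the median change was -0.71 over 974 symbols, at 40 to 80 it was -0.34 over 1367, at 20 to 40 it was -0.06 over 2335, at 10 to 20 it was 0.12 over 4715, and under 10 it was 0.26 over 9938. In unique windows the lowest level had a median change of 0.15 and the highest again -1.01. Sorting the symbols by their mean at E17.5 and PN1, libraries that do not enter the change, gave -1 at the highest level and 0.32 at the lowest. Sorted by PN15 alone the top level was at -0.95, but the order broke at the low end, with 0 under 10, 0.36 at 10 to 20 and 0.13 at 20 to 40.

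**Figure D1:**
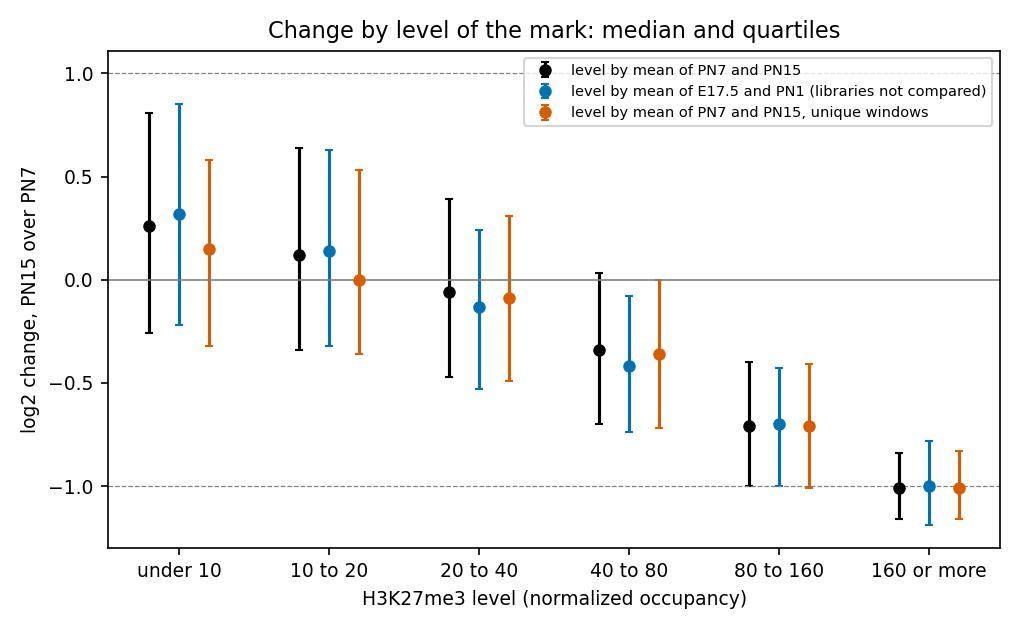
Log2 change in H3K27me3 from PN7 to PN15 (vertical axis) for 6 levels of normalized occupancy (horizontal axis), with points for medians, bars for quartiles, and colours for the way the level was set. In all 3 colours the median goes down from the lowest level to the highest, where it is between -1.01 and -1.

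At levels of 10 units or more the spread of the changes was wider than counting alone. Counting error leaves out any difference between the 2 preparations, and the spread also holds the trend within a level. At 160 or more, the quartiles of the change, -1.16 and -0.84, corresponded to a standard deviation of 0.24, while the read numbers gave a counting error of 0.12 for a typical symbol. At 40 to 80 the figures were 0.54 and 0.22. Under 10 units they were 0.79 and 0.65, and 0.67 and 0.64 in unique windows, so single symbols at that level were not resolved. To show which genes left the trend, the median change of the 400 unique-window symbols nearest in level was taken off each change, and the result is called the change relative to level.

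The order of symbols was kept in large part. Over the 5099 symbols in unique windows at a mean of at least 20, the rank correlation across symbols was 0.821 between PN7 and PN15, 0.889 between PN1 and PN7 and 0.965 between E17.5 and PN1. Symbols are not independent replicates, and both the stage and the depth of the libraries differ between these pairs. Of the 500 highest unique-window symbols at PN7, 408 (81.6%) were among the 500 highest at PN15.

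The Hox genes, which pattern the body axis and are silent in retina, were the highest in H3K27me3 at PN7 and lay on the trend. The 10 highest symbols at PN7 were all Hox genes, and 31 of the 50 highest were. By GENCODE start sites 3 pairs of them, Hoxa6 and Hoxa3, Hoxb8 and Hoxb7, and Hoxd12 and Hoxd11, have overlapping windows, so the members are not all separate observations. At PN15 the highest value of the table, 416, was not at a Hox gene. Over the 39 members of the 4 clusters the PN7 values ran from 497 to 766 with a median of 654, and the PN15 values from 223 to 397 with a median of 318, so the stages did not overlap. Their medians at E17.5 and PN1 had been 702 and 952. All 39 were lower at PN15, and 21 fell at least 2-fold, near the 51.7% of all symbols at a mean of 160 or more. That number was 30 on the own-median scale and 39 on the receptor-median scale. The median change was -0.95 for HoxA, -0.95 for HoxB, -1.12 for HoxC and -1.14 for HoxD.

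Hoxb9 (mm9 chr11:96132771-96137909) had the highest PN7 value, 766 (exact Poisson 95% interval 736 to 797), and stood at 349 (316 to 385) at PN15. Hoxd10 (chr2:74529147-74533163), with 658 and 252, had the lowest change of the 39, -1.38. Hoxd11 (chr2:74517449-74525798), its neighbour in the cluster, had the highest, -0.74, with 528 and 316. These intervals, like those below, cover counting error only. Relative to level, the median Hox change was 0.01, and H3K4me2 at PN15 was at most 18 units at any Hox gene.

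**Figure D2:**
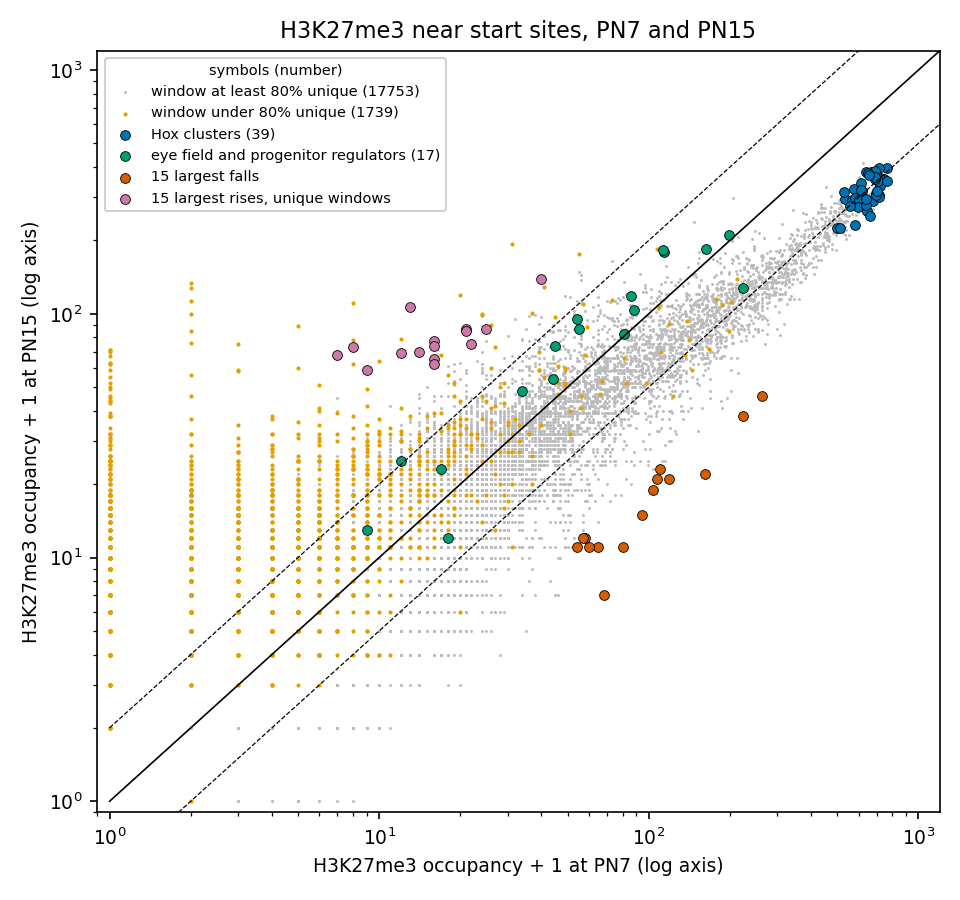
H3K27me3 occupancy plus 1 at PN7 (horizontal, log axis) and at PN15 (vertical, log axis), 1 point a symbol, with the line of equal values and dashed lines at 2-fold. The 39 Hox genes sit near the lower dashed line at the top of the range, the 15 largest falls lie far below it, and the points of windows under 80% unique make up the low PN7 edge.

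Several other families of developmental transcription factors and signals had lower medians at PN15 as well. Their counts stand against the 9.7% that fell and 15% that rose over all symbols, and 18.8% and 4.25% at a mean of at least 20. Of 13 Nkx homeobox genes 9 fell, none rose, and the median change was -1.14, with Nkx2-4 at 331 and 114 and Nkx6-3 at 48 and 43. Of 19 Wnt ligand genes 9 fell and none rose, with a median of -0.93. Of 9 Pax genes 5 fell, with a median of -1.01, but Pax6 had a change of 0.65. Of 44 forkhead genes 13 fell and 2 rose, and of 19 Sox genes 7 fell and 1 rose. The Dlx, Gata, Irx, Lhx and Isl, Tbx and Pou families and the Fgf ligands had medians from -0.95 to -0.65, although in the Pou family only 1 of 15 fell. The Bmp and Gdf ligands, with a median of -0.30, and the Notch pathway, with -0.29 and 6 members higher and 6 lower at a mean of at least 20, moved less. Over the Nkx, Wnt, Pax, forkhead and Sox genes the median change relative to level was between -0.12 and 0.28 among members at a mean of at least 20.

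Some falls crossed from a high to a low value. Among unique-window symbols, 116 were at 40 or more at PN7 and at 20 or less at PN15. Their medians were 63, 72, 48 and 17 in stage order, and in 111 of them (95.7%) the PN15 value was below both E17.5 and PN1, against 56.6% of all 5099 unique-window symbols at a mean of at least 20, though a low PN15 value was what set the 116 apart. H3K4me2 over the same symbols had a median of 59 at E17.5 and 90.5 at PN15. Only 1 of the 116 had H3K4me2 at least 2-fold lower at PN15 than at E17.5, and 23 (19.8%) had it at least 2-fold higher, against 19.4% and 5.71% of the 5099.

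Among the 15 largest falls, Ckmt1 (mm9 chr2:121183450-121189473), a mitochondrial creatine kinase, was at 194, 222, 161 and 21 from E17.5 to PN15. The PN7 value was 7.67 times the PN15 value (exact conditional 95% interval 5.1 to 12.1), and H3K4me2 at Ckmt1 was 26, 20, 29 and 114 over the same stages. At Ckmt1 most of the drop lay between PN7 and PN15.

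Nefh (chr11:4838757-4848067), the heavy neurofilament subunit of large axons, was at 457, 475, 262 and 45. Plk5 (chr10:79819204-79828234), a polo-like kinase gene expressed in brain, was at 416, 561, 222 and 37. Both had been among the stronger targets at birth and both were below their PN7 interval at PN15, by 5.82 times (4.36 to 7.79) for Nefh and 6 times (4.43 to 8.47) for Plk5. Sncb, beta-synuclein of presynaptic terminals, was at 178, 183, 118 and 20. Tub (chr7:116154339-116177974), the tubby gene whose loss causes retinal degeneration, was at 170, 178, 106 and 20. Camk1d, a calcium/calmodulin-dependent kinase gene, was at 39, 52, 79 and 10, so its highest value of the 4 stages was at PN7.

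Others of the 15 were Pura, Klhl21, Zfyve28, Lsm14b, Nr4a1, Pkp2, D730039F16Rik and Unc5c, with PN7 values from 53 to 109 and PN15 values from 6 to 22. Further down the order stood Drd4, the dopamine D4 receptor (151 and 32), Slc12a5, the neuronal chloride extruder KCC2 (85 and 19), and Celsr3, an adhesion receptor of axon tracts (81 and 20). Egr1 and Fos, 2 activity-induced transcription factors, and Bmi1 of the Polycomb complex PRC1 were among the 116 symbols named above. Egr1 and Fos were picked out after their values were seen.

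The gene lists of photoreceptors split between rod and cone genes. Rod genes that carried the mark were lower at PN15. Of 19 rod phototransduction genes 7 were at a mean of at least 20 and all 7 were lower at PN15, against 70.2% of all symbols at that level. Of the 19, 3 fell (15.8%) and 2 rose (10.5%), the latter from values of 10 or less, which is near the 9.7% and 15% over all symbols. Slc24a1 (chr9:64770668-64799414), the sodium, potassium and calcium exchanger of rod outer segments, was at 182, 180, 157 (143 to 171) and 40 (29.4 to 53.6). Its H3K4me2 was 14, 9, 3 and 111. Guca1a, a guanylate cyclase activator whose window was 77.6% unique, was at 117, 158, 144 and 58, and Gnat1, rod transducin alpha, at 43, 32, 35 and 15. Sag and Pde6a, by contrast, were at 19 or less at all 4 stages.

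Of 13 transcription factors of photoreceptors 4 fell (30.8%) and 2 rose (15.4%), against 9.7% and 15% over all symbols, and of the 5 at a mean of at least 20, 3 fell and Casz1 rose (25 and 51). Otx2 (chr14:49277354-49287319), which drives photoreceptor and bipolar fate, was at 212, 289, 130 and 46, and Neurod1 at 186, 230, 58 and 24. Esrrb (chr12:87702067-87862578), an orphan nuclear receptor of rods, was at 317, 404, 317 and 90, and the PN7 value was 3.52 times the PN15 value (2.88 to 4.36). With the mean over all its entries, the log2 change of Esrrb was -1.34 in place of -1.81. Crx, Nrl, Nr2e3 and Rorb were at 16 or less at both stages. Of 15 outer segment and ciliopathy genes 4 fell (26.7%) and 3 rose (20%). Of the 6 at a mean of at least 20, 3 fell and Prom1 rose (14 and 32). Cds1 was at 199, 232, 186 and 40 and Abca4 at 169, 174, 105 and 37, whereas Prph2 and Rom1 were at 10 or less. H3K4me2 at PN15 was 140 at Otx2, 98 at Esrrb, 115 at Cds1 and 160 at Abca4, each above its PN7 value.

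Cone genes that carried the mark were more often higher than lower at PN15. Of 15 cone genes none fell, against 9.7% of all symbols, and 2 rose (13.3%), close to the 15% of all symbols. Of the 11 at a mean of at least 20, 8 had a higher value at PN15 and 2 a lower one, against 28% higher over all symbols at that level. Opn1sw, the short-wave cone opsin, was at 8, 14, 14 (10.3 to 18.8) and 49 (36.9 to 63.5), a ratio of 3.5 (2.31 to 5.27). Gngt2, cone transducin gamma, was at 67, 72, 54 and 148, a ratio of 2.74 (2.21 to 3.41). Gnat2, cone transducin alpha, was at 51, 43, 72 and 95, Cnga3 at 50, 69, 100 and 110, and Arr3, cone arrestin, at 27, 25, 36 and 21. Opn1sw and Gngt2 were above all their earlier values at PN15. On the receptor-median scale the median of the cone list was -0.59 in place of 0.40, and it was 0 with the receptor median subtracted, while the changes of Opn1sw (0.78) and Gngt2 (0.45) stayed above 0 on the receptor-median scale and those of Gnat2 and Cnga3 did not. H3K4me2 at Opn1sw was 11 or less at every stage.

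The regulators of the eye field and of retinal progenitors went against the level trend as a list. Of 17 members none fell, against 9.7% of all symbols, and 1 rose (5.88%), against 15%. The median change was 0.46, and 12 of the 13 at a mean of at least 20 were higher at PN15, against a median of -0.42 and 28% higher over all symbols at that level. Their median occupancy went through 17, 27, 54 and 86 in stage order. Relative to level the median among the 13 was 1.11. On the receptor-median scale the list's median change was -0.51, so the direction, though not the distance from other genes of like level, depends on the scale.

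Pax6 (mm9 chr2:105509053-105543317), a master regulator of eye development, was at 4, 15, 113 (102 to 125) and 178 (154 to 204), a PN15 to PN7 ratio of 1.58 (1.32 to 1.87). Its H3K4me2 went the other way, with 137 at E17.5, 114 at PN7 and 44 at PN15. Sox2 (chr3:34548927-34551383), which keeps progenitors and glia in their state, was at 26, 75, 112 and 182, a ratio of 1.62 (1.36 to 1.93), and its H3K4me2 at 104, 124 and 36 at E17.5, PN7 and PN15. At both genes the H3K27me3 intervals at PN7 and PN15 did not overlap.

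Lhx2 was at 28, 62, 85 and 117, Hes1 at 13, 27, 44 and 73 and Fgf15 at 17, 25, 54 and 86. Six6, the 1 member past 2-fold, stood low, at 3, 7, 11 and 24. Ccnd1, the cyclin of retinal progenitors, was the 1 member at a mean of at least 20 that was lower at PN15, at 71, 134, 222 and 126. At PN15 the highest members, Tbx3 (209) and Nr2e1 (184), were still below the lowest Hox value, 223.

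**Figure D3:**
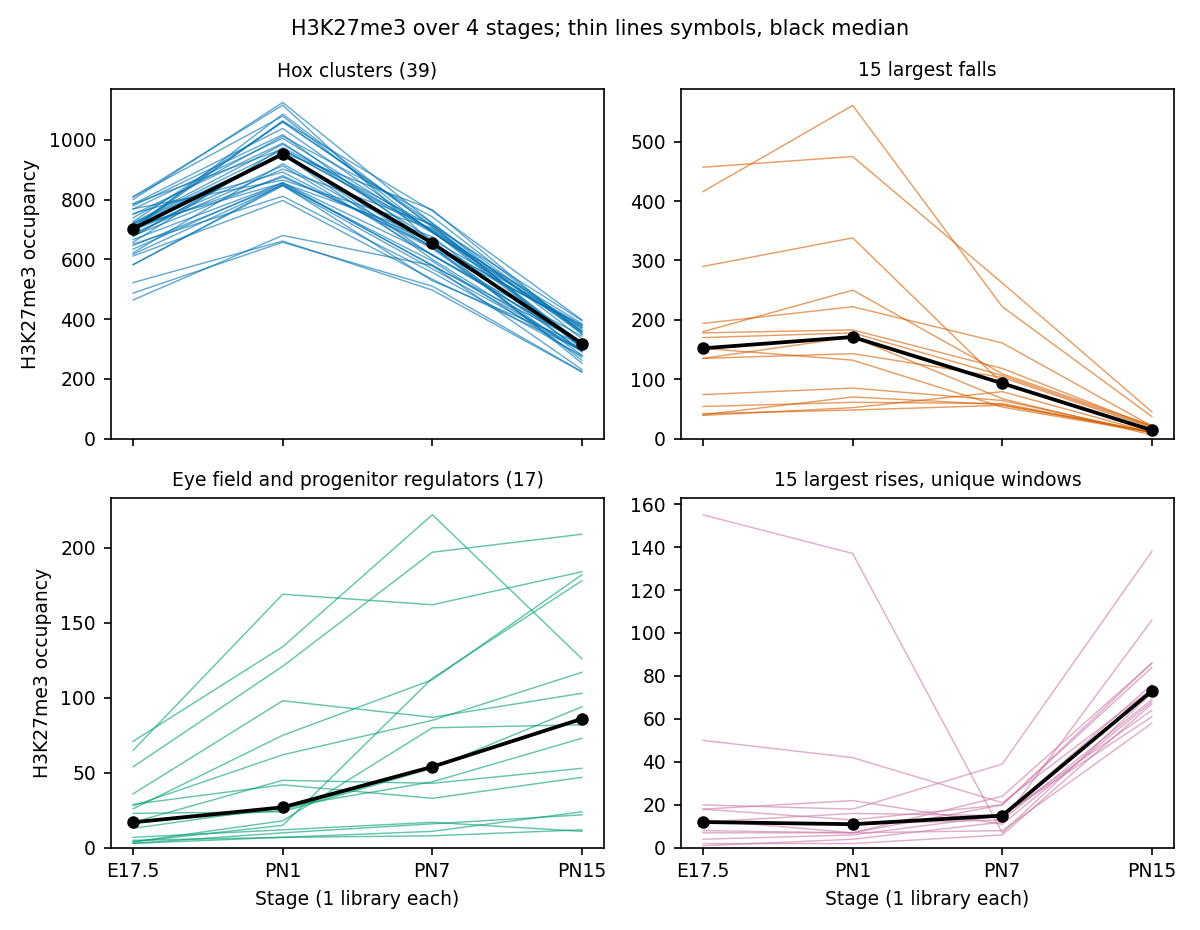
H3K27me3 occupancy (vertical axis, normalized units, separate scale in each panel) by stage (horizontal axis, 1 library each) for 4 groups of symbols, with a thin line for each symbol and the median in black. The medians of the Hox genes and of the largest falls go down from PN1 to PN15, the progenitor regulators go up with medians of 17, 27, 54 and 86, and the rises in unique windows are highest at PN15 except for Il31ra.

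Genes of Mueller glia, the radial glia that share many genes with progenitors, were also mostly higher at PN15. The list shares 1 member, Hes1, with the progenitor list. Of 23 genes 1 fell (4.35%) and 3 rose (13%), near the 9.7% and 15% over all symbols, and 13 of the 14 at a mean of at least 20 were higher at PN15, against 28% of all symbols at that level. Rlbp1, the retinaldehyde binding protein, was at 8, 11, 55 (47.2 to 63.8) and 136 (116 to 159). The window of Rlbp1 overlaps that of Fanci, whose start site lies 4902 bp away and which was at 8, 7, 20 and 84. Sox9 was at 39, 77, 110 and 132 and Nes at 23, 51, 63 and 93, whereas Cyp26a1, which degrades retinoic acid, was at 292, 344, 381 and 255. On the receptor-median scale the median of this list was -0.70 in place of 0.27.

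Genes of the inner retinal neurons were mostly lower at PN15. Relative to level, the medians among members at a mean of at least 20 were 0.15 for ganglion, 0.13 for amacrine, 0.03 for horizontal and -0.18 for bipolar cell genes, and only 2 of 13 bipolar genes lay above their level. Of 31 retinal ganglion cell genes 7 fell (22.6%, against 9.7% over all symbols and 18.8% at a mean of at least 20) and none rose. Besides Nefh, these included Rbpms2 (120 and 39), Atoh7, the factor that makes ganglion cells (66 and 24), Isl1 (372 and 144) and Nefl (290 and 123). Pou4f2, a ganglion cell fate factor, was at 412 and 223. Of 29 amacrine genes 5 fell (17.2%) and none rose, with the glycine transporter Slc6a5 at 531 and 209 and Ptf1a, the amacrine and horizontal fate factor, at 323 and 148. The GABA-synthesizing enzymes differed, with Gad1 at 450 and 239 and Gad2 at 41 and 74.

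Of 16 horizontal cell genes 4 fell (25%) and 3 rose (18.8%), the latter all from 7 or less, against 9.7% and 15% over all symbols. Gjd2, connexin 36, was at 185, 222, 68 and 24, while Onecut2 was at 213 and 206 and Prox1 at 110 and 108. Of 24 bipolar genes 7 fell (29.2%) and 3 rose (12.5%). Grm6, the glutamate receptor of ON bipolar cells, was at 451, 457, 293 and 121, Vsx1 at 378, 459, 328 and 152 and Scgn at 155, 187, 168 and 78. Trpm1, the channel that Grm6 controls, was at 23 and 17, so the receptor gene carried the mark and the channel gene hardly did.

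**Figure D4:**
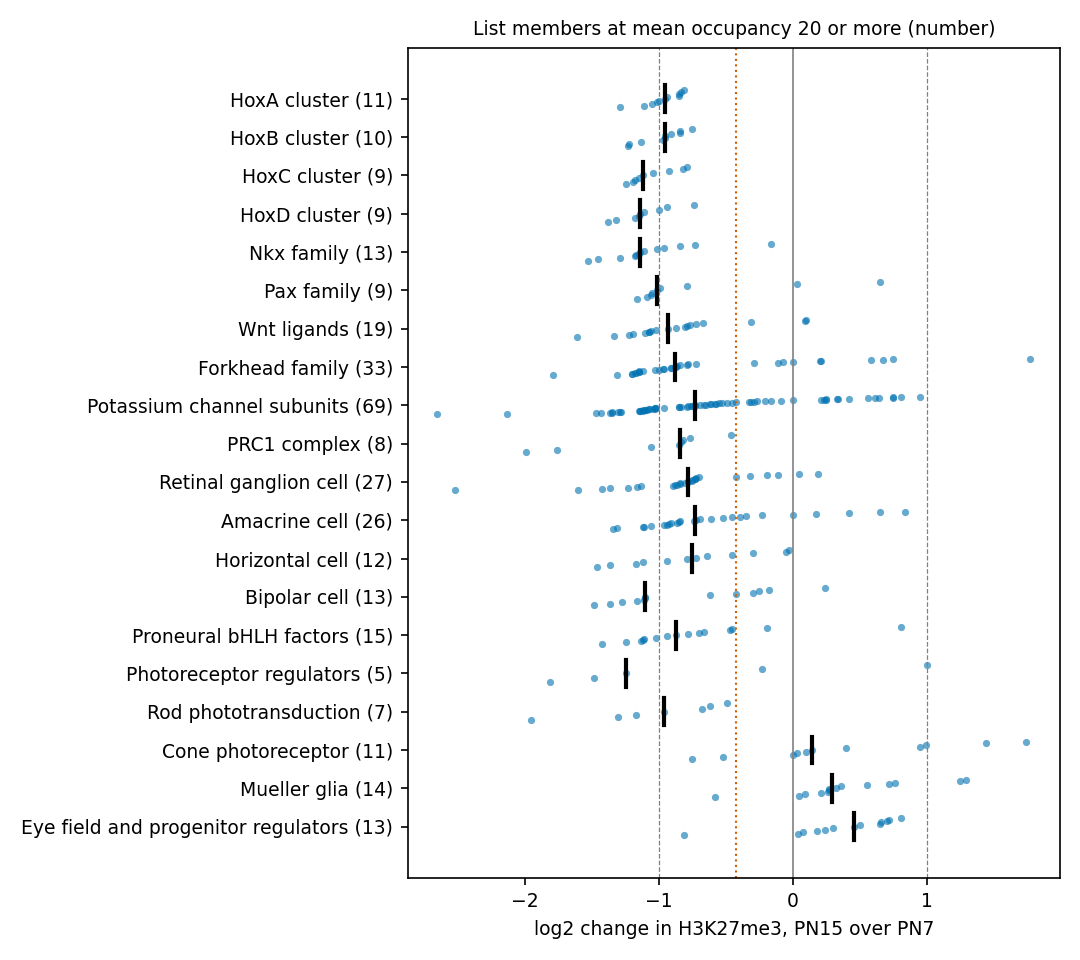
Log2 change in H3K27me3 from PN7 to PN15 (horizontal axis) for members of 20 gene lists whose mean occupancy was at least 20, with the number of such members in brackets, a point for each symbol and a black bar for each list's median. The dotted line marks the median over all symbols at that level, -0.42. Of the 20 lists drawn, only the cone, Mueller glia and progenitor lists have medians above 0, at 0.14, 0.30 and 0.46. Lists not drawn also had medians above 0 at that level. These were vomeronasal receptors (0.67), protocadherins (0.35), microglia and blood (0.31), crystallins (0.24), olfactory receptors (0.22), keratins (0.17) and genes whose expression fell with maturation (0.04).

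Of 17 proneural factors 6 fell (35.3%, against 9.7% over all symbols) and none rose, with a median of -0.78. Neurog3, a factor of pancreatic endocrine cells, was at 452 and 206, Olig1 at 365 and 180, and Neurod2 at 247 and 217, a ratio whose interval (0.761 to 1.02) includes 1. Of 89 potassium channel genes 27 fell (30.3%) and 1 rose (1.12%), against 9.7% and 15% over all symbols. Kcne2 (43 and 84) had the highest change among those at a mean of at least 20. Of 90 neurotransmitter receptor genes 12 fell (13.3%) and 5 rose (5.56%), against the same shares. All 12 that fell were among the 64 at a mean of at least 20, a level at which 18.8% of all symbols fell. Gabrd, a GABA-A receptor subunit, was at 298 and 86, while Grm4 had a change of 1.10.

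Genes of the Polycomb complexes were compared as well. The 13 genes of PRC2 and of the H3K27 demethylases were at 15 or less at both stages, with the exception of Phf19 (75 and 58), and Ezh2, the catalytic subunit, was at 5 and 2. Of 19 genes of PRC1, the complex that binds H3K27me3, 3 fell (15.8%) and 1 rose (5.26%), against 9.7% and 15% over all symbols, and 11 were under a mean of 20. The other 8 were all lower at PN15, against 70.2% of all symbols at that level, and those described here were picked after their values were seen. Cbx7 (chr15:79746237-79801549), a chromodomain reader of the mark, was at 127, 194, 114 and 28, and Bmi1 (chr2:18598645-18608256) at 124, 151, 60 and 17. Pcgf1 was at 74 and 35. The median of the 8 relative to level was -0.72. Among 10 cell cycle brakes, the CDK inhibitors and Rb family, 4 fell (40%) and 1 rose (10%), against 9.7% and 15% over all symbols. Relative to level, the median among the 4 at a mean of at least 20 was -0.08. Cdkn2a was at 429 and 212 and Cdkn2b at 218 and 105, while Cdkn1a had a change of 0.14. Cdkn2d, the 1 that rose, lay in a repeated window and was listed at 0 at PN7.

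The study's own list of genes whose expression rose with maturation had 121 members in the table, of which 26 fell (21.5%) and 10 rose (8.26%), against 9.7% and 15% over all symbols, and the 30 at a mean of at least 20 had a median change of -1.09, against -0.42 over all symbols at that level. Its list of genes whose expression fell had 118 members, of which 16 fell (13.6%) and 17 rose (14.4%), close to those shares, with a median of 0.04 at that level. Both lists were chosen on expression in the same course of development, so they are no independent evidence of direction.

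At a mean of at least 20, rises in unique windows were few, 140 of 5099 (2.75%). There were 41 symbols at 20 or less at PN7 and at 40 or more at PN15, with medians of 12, 11, 17 and 51 over the 4 stages. They were chosen for a high PN15 value, and in 39 of them (95.1%) it was above both E17.5 and PN1, against 30.1% of all 5099 unique-window symbols at a mean of at least 20. Their H3K4me2 median was 57 at E17.5 and 43 at PN15, with 13 (31.7%) at least 2-fold lower and none at least 2-fold higher, against 19.4% and 5.71% of the 5099. Tnrc18 (chr5:143512088-143579341) was at 1, 4, 12 (8.40 to 16.3) and 106 (87.7 to 126). Nr2f1 (chr13:78328234-78339018), the nuclear receptor COUP-TFI, was at 4, 6, 15 and 76, a ratio of 5.07 (3.52 to 7.36).

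Cacna1h (chr17:25511230-25570728), a T-type calcium channel gene, was at 20, 18, 39 and 138, and its H3K4me2 at 71, 51, 96 and 24. Mmp14 (chr14:55050441-55060095), a membrane metalloproteinase gene, was at 11, 6, 18 and 61, with H3K4me2 at 108 at E17.5 and 27 at PN15. Tcf19 and Cchcr1, with start sites 276 bp apart, share most of a window and count as 1 observation, at 15 and 64 and at 15 and 61. Il31ra, at 155, 137, 7 and 72, resembled the repeated windows in its low PN7 value although 91.6% of its window was unique, and its H3K4me2 at PN7 was 0. Zfp608, at 2, 2, 6 and 67, was the largest rise in a unique window.

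The falls were deeper where H3K4me2 had gone up. Among unique-window symbols at a mean H3K27me3 of at least 40, those with H3K4me2 at least 2-fold higher at PN15 than at E17.5 (117 symbols) had a median H3K27me3 change of -1.08, and 64 of them fell (54.7%). With H3K4me2 higher by less than 2-fold (880 symbols) the median was -0.77 and 34.1% fell. With H3K4me2 lower by less than 2-fold (1338) or by more (615) the medians were -0.60 and -0.65, and 21.3% fell in each. Relative to level the 4 medians were -0.51, -0.17, 0.05 and 0.11 in that order. At PN15 itself, 48% of the 229 symbols with 80 or more units of H3K4me2 fell, against 20.1% of the 572 with under 10. H3K4me2 at PN7 was left out of this sorting, since 4022 symbols were listed at 0 in that library.

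**Figure D5:**
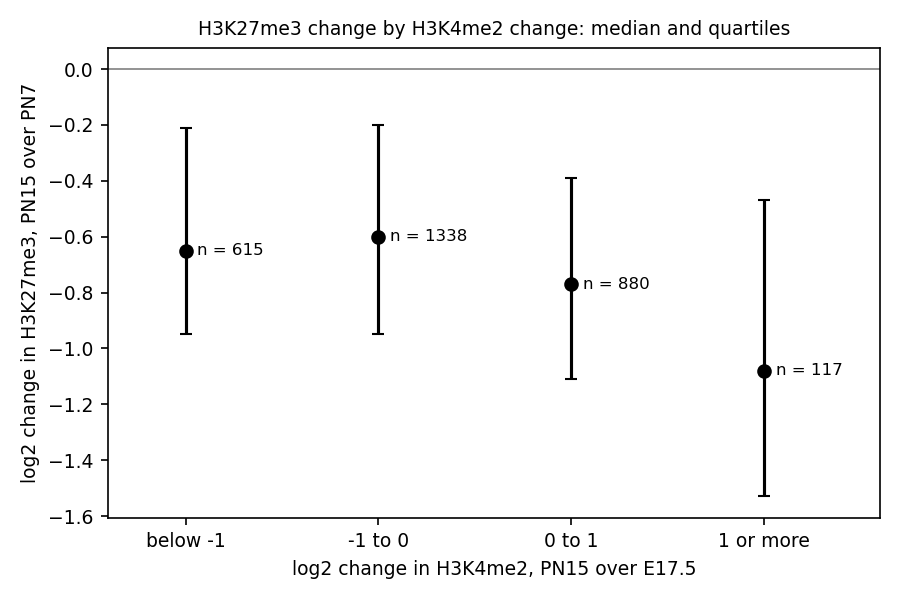
Median and quartiles of the log2 change in H3K27me3 from PN7 to PN15 (vertical axis) for unique-window symbols at a mean H3K27me3 of at least 40, sorted by the log2 change in H3K4me2 from E17.5 to PN15 (horizontal axis), with the number of symbols beside each point. The median is lowest, -1.08, where H3K4me2 was at least 2-fold higher at PN15.

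The strongest targets that fell had H3K4me2 near that of other symbols. The 504 unique-window symbols that fell from 160 or more at PN7 had median H3K27me3 of 333, 389, 285 and 124, and H3K4me2 of 31 at E17.5 and 22 at PN15, against 35 and 26 over all 5099. The 488 that fell from lower values had 81, 94.5, 67 and 24, and H3K4me2 of 48 and 65. In the second set 76 (15.6%) had H3K4me2 at least 2-fold higher, in the first 21 (4.17%), against 5.71% of all 5099. The PN15 value was below both E17.5 and PN1 in 502 of the 504 and in 467 of the 488, against 56.6% of all 5099, but the choice of symbols that fell favours this. For 632 of the 992 symbols that fell (63.7%), the PN7 value already lay below both earlier stages, as it did for 38% of all 5099.

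The promoters of the symbols differed in CpG content, and 5 are shown to let a reader compare a gene that fell, a Hox gene, a progenitor gene and a cone gene. The sequences are RefSeq's, on GRCm38.p6 and not on the build of the measurements, from 250 bases before to 50 bases after the annotated start (the first listed start where there are several), 5′ to 3′ on the gene's strand. Capitals mark each CG dinucleotide, which reads the same on both strands, and 95.3% of the 13965 symbols with such a sequence hold at least 1. Slc24a1 (chr9:64951571-64951870, minus strand) had 6 CG and fell from 157 to 40. Camk1d (chr2:5714713-5715012, minus strand) had 29 and fell from 79 to 10. Hoxa6 (chr6:52208623-52208922, minus strand) had 26 and went from 721 to 359. Sox2 (chr3:34649745-34650044, plus strand) had 27 and went from 112 to 182. Opn1sw (chr6:29380464-29380763, minus strand) had none and rose from 14 to 49.
Slc24a1: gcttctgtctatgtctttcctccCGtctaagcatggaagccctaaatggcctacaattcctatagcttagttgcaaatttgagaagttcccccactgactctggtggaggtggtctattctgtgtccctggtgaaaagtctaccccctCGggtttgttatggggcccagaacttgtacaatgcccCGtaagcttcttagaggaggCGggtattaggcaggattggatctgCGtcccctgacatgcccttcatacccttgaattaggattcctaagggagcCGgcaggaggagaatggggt
Camk1d: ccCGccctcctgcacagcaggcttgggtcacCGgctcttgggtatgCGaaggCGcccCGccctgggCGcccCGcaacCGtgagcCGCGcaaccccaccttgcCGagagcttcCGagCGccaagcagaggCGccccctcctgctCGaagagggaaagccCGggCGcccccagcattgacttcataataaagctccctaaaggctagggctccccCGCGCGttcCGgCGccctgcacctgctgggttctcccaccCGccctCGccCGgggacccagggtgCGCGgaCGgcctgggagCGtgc
Hoxa6: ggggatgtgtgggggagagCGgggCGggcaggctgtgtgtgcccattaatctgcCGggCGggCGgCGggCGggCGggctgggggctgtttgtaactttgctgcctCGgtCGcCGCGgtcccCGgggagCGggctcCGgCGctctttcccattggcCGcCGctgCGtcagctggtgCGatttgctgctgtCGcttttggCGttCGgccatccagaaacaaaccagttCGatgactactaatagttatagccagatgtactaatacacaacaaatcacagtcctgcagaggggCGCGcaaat
Sox2: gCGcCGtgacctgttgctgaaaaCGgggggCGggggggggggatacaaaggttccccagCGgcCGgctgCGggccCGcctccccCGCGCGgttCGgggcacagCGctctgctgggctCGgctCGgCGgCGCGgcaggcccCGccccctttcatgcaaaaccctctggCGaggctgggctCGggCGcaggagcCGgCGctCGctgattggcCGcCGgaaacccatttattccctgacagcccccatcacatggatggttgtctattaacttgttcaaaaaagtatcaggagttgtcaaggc
Opn1sw: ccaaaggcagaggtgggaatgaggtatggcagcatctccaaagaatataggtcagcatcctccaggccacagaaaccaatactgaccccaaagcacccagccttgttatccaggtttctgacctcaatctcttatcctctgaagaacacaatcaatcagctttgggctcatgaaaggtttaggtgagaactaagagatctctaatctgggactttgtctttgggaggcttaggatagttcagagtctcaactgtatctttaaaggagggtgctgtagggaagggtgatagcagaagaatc

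Across unique-window symbols with a promoter sequence, the median was 21 CG in the 686 that fell at a mean of at least 20, 14 in the 98 that rose and 14 in the 2756 that did neither. Among symbols at a mean of at least 40, the share that fell went from 16.1% of the 236 promoters with fewer than 5 CG to 35.4% of the 393 with 30 or more. Once the level was taken into account this order was small, with median changes relative to level of 0.02 and -0.05. The measured window is far longer than the printed promoter, so CG content here describes the genes and not the sites of the mark.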

How the data were processed

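Retinal chromatin was profiled by ChIP-Seq, 1 library for each mark and stage. Per the labels and the study's methods, the authors aligned reads to mm9 with Bowtie 0.12.4, dropped reads with several positions, normalized to total mapped reads and deposited, as a whole-number score for each gene entry, the occupancy within 2.5 kb of the start site. These are not raw counts, so no count test was used. Over the 352 symbols with windows under 20% unique, however, median H3K27me3 was 8, 7, 0 and 10 in stage order. Only the PN7 column was near 0 there. Whether reads with several positions were dropped, and totals counted, alike in all columns was not tested. The antibodies' catalogue numbers for the 2 marks are exchanged between the labels and the study's methods. In the deposited columns at PN15 the Hox genes were at 223 or more for H3K27me3 and at most 18 for H3K4me2, and housekeeping genes had medians of 6 and 86. The deposited table held 25152 entries for 20045 symbols, and 18 symbols stored as dates were read back.

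The change was log2((PN15 + 1)/(PN7 + 1)), and a change of at least 2-fold was called. The value of 1 read was found by fitting how many read numbers round to each whole-number value of the histogram, a step tested on simulated data. That value gave exact 95% intervals for counting error only. It could not be found at E17.5. Reads without molecular identifiers are not independent molecules. Unique windows were those with at least 80% of 32-base words occurring once in mm9, from GENCODE M1 start sites found for 19492 symbols. Gene spans printed as mm9 coordinates are GENCODE M1's.

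Symbols were named by rule: the 15 largest falls and 15 largest rises at a mean of at least 30, the 10 highest PN7 values, for each list its extremes, and all members of the Hox, retinal cell type, progenitor, proneural, PRC2 and CDK inhibitor lists. The largest rises in unique windows, the symbols crossing 40 and 20, further falls and PRC1 members were added after the values were seen. Members and the 57 lists were chosen with earlier results of these data known. Python 3.11.15, numpy 2.4.6, pandas 2.3.3, scipy 1.17.1, numba 0.67.0 and matplotlib 3.10.9 were used. The libraries from rd1 retina at PN30 and with an anti-GFP antibody at PN56 were not used. Some symbols that the rule names are not reported here.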

Additional observations from a re-analysis of the deposited data

How the results depend on the processing

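No paired analysis was possible because each stage had 1 library for the mark, and for the same reason no library could be left out. The number of symbols that fell, 1945, was 1077 with a pseudocount of 5, 1016 at a mean of at least 20, 8879 when each library was divided by its receptor median, 8542 when that median was subtracted, 4524 at 1.5-fold and 310 at 3-fold. The number that rose, 3006, was 1418, 229, 999, 1570, 5445 and 1311 under the same settings, and 1625 in unique windows, an alternative chosen after seeing the data. The share of calls that fell, 39.3%, was 51.4% with own-median scaling, 89.9% with receptor-median scaling, 84.5% with subtraction, 81.6% at a mean of at least 20 and 19.1% at 3-fold. The top level's median of -1.01 stayed between -1.07 and -0.95 in 7 alternatives and was -1.16 with own-median scaling, and the lowest level's median of 0.26 ranged from 0 to 0.42. With receptor-median scaling, added later, they were -2 and -0.61. Of 57 list medians 34 were below 0 on the deposited scale. That scaling put 56 below 0. Relative to level, also added later, 15 were, and the Pax median of -1.01 became 0.01. What made the counts move with the receptor scale was not tested. Depth limits single symbols under about 10 units, where counting error alone was 0.65 in log2.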

Other observations

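Some lists outside the retina's own cell types also had positive median changes on the deposited scale, read here against the 9.7% that fell and 15% that rose over all symbols. Of 48 keratin genes 1 fell and 2 rose (4.17%), and 24 of the 34 at a mean of at least 20 were higher at PN15, against 28% over all symbols at that level, with Krt79 at 23 and 49 and Krt4 at 39 and 72. Of 21 genes of microglia and blood none fell and 1 rose (4.76%), with a median change of 0.58. Of 1044 olfactory receptor genes 9 fell and 388 rose, from a median of 6 to 10, and of 296 vomeronasal receptor genes 2 fell and 196 rose. Of the 1044 and 296 genes, 193 and 159 lay in windows under 80% unique. With unique windows only, the medians were 0.58 and 0.81. The 58 clustered protocadherins, with a median change of 0.41, had 1 that fell and 11 that rose (19%). The receptor genes set the receptor-median scale, and with their median subtracted from each library the olfactory, vomeronasal and microglia medians were 0, the keratin median was -0.05 and the protocadherin median -0.11.

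Of 18 genes of pluripotent cells 7 fell (38.9%) and 4 rose (22.2%), against 9.7% and 15% over all symbols, and 11 of the 15 at a mean of at least 20 were lower at PN15, close to the 70.2% over all symbols at that level, with Lin28a at 142 and 40, Lin28b at 303 and 114 and Utf1 at 330 and 138, whereas Pou5f1 was at 79 and 116. Among axon guidance genes, 9 of 69 fell (13%) and 6 rose (8.7%), near the shares over all symbols. Unc5d was at 92 and 24 and Slit3 at 416 and 154, while Nrp1 was at 23 and 57. The remaining lists, crystallins, lens, pigment epithelium, germ cells, housekeeping and ribosomal proteins among them, had medians between -0.30 and 0.55.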
